A study of Mus musculus with 6 samples.

Results

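Steady-state RNA of 1 cell line was compared after 12 h in imidazole and at 0 h. The line carries Src R388A/Y527F, a mutant kinase that imidazole can restore. All genes on the array were described, and the comparison rests on 2 of the 6 arrays of the series, 1 per group. The study asked which genes follow a chemical rescue of Src. The 12 h sample was SYF cells (mouse embryonic fibroblasts deficient in Src, Yes and Fyn) with a stably transfected Src R388A/Y527F, kept overnight without serum and then held in 5 mM imidazole for 12 h. Its baseline was the same line after the same serum starvation, without imidazole, at 0 h. The line's 1 h array and the 0, 1 and 12 h arrays of a second stably transfected SYF line, with Src D386N/Y527F, are set beside it. Both lines lack the 3 endogenous kinases, carry Y527F and were grown in hygromycin B. They are separate transfected populations, and whether either is a clone is not stated. No 12 h array without imidazole was analysed here, so 12 h of time, of serum starvation and of imidazole cannot be told apart. With 1 array per group there is no replicate and no test. A gene is called higher or lower below from its size of change alone.

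Src is a membrane-bound tyrosine kinase that relays signals from growth factor receptors and integrins to ERK, STAT3 and the actin cytoskeleton. A tyrosine in its tail holds the kinase in a closed, inactive form, and Y527F removes that brake. R388A takes away an arginine of the catalytic loop and leaves a nearly inactive enzyme, in which the small molecule imidazole can stand in for the missing side chain. D386N takes away the catalytic base, and imidazole does not replace it. A pair of transcription programmes met below sit close to nutrient sensing. SREBP2, released from the endoplasmic reticulum when sterols run low, turns on cholesterol synthesis. TFEB and TFE3, held in the cytoplasm by mTORC1 at the lysosome, turn on lysosomal genes when they reach the nucleus.

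The signal that the GCOS software gave each probe set is the level quoted throughout, and a log2 change is 12 h minus 0 h. The deposited data also hold a second summary of the same 6 arrays, whose method is not stated, and its log2 change follows the GCOS one in the text. Signals below 20.4 (11.3 in the second summary) were set to that floor. Every array had a trimmed mean signal of 150 and between 12459 and 12944 genes above the floor. All 8 fibroblast markers were above the floor on every array, with summed signals of 21082.0 at 12 h and 18494.3 at 0 h. Below the floor on both arrays were Ptprc, Itgam and Cd3e (blood cells), Pecam1 and Tek (endothelium) and Cdh1 and Krt14 (epithelium). So were Sox2 and Olig2 (neural), Myog and Myh3 (muscle) and Adipoq and Fabp4 (fat). Other members of these lists were above it. At 12 h these were 4 of 7 blood, 3 of 5 endothelial, 4 of 6 epithelial, 4 of 6 neural, 3 of 6 muscle and 0 of 5 fat cell markers. At 0 h the counts were 4, 2, 3, 4, 2 and 1 in that order. Summed signals at 12 h against 0 h were 383.9 against 395.7 for the 7 blood markers, 242.8 against 193.0 for the 6 epithelial ones and 712.4 against 899.0 for the 6 neural ones. They were 127.1 against 119.7 for the 5 endothelial markers, 105.7 against 111.7 for the 6 muscle markers and 37.6 against 75.3 for the 5 fat cell markers. The Src probe set gave 42.2 at 12 h against 66.9 at 0 h, a log2 change of -0.66 in GCOS and -0.29 in the second summary. A second Src probe set stood at -0.77. Fyn gave 228.9 at 12 h against 226.0 at 0 h, and Yes1 183.5 against 209.2. Whether these probes lie in the deleted parts or read the introduced gene is not known, and the labels cannot be checked with them. Csk, the kinase that phosphorylates the tail tyrosine of Src, gave 405.7 at 12 h against 439.9 at 0 h.

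Most genes differed little between 12 h and 0 h. The GCOS change had a median of -0.01 over 13511 genes. Over the 11402 genes above the floor in both summaries, its 5th and 95th percentiles were -0.54 and 0.48. In the second summary these percentiles were -0.34 and 0.33. By GCOS alone, 114 genes were at least 2-fold higher at 12 h, 0.844% of those tested, and 138 were at least 2-fold lower, 1.02%. Of these, 167 were above the floor in both summaries, and 5 were 2-fold changed in the same direction in both. The 5 were Uap1l1, Tm7sf2, Rab20 and Rragd, higher at 12 h, and Rgs4, lower. The rest of the text therefore rests on genes at least 1.5-fold changed in the same direction in both summaries. There were 50 higher genes, 0.439% of the 11402 above the floor in both, and 48 lower genes, 0.421%. Median signals were 212.4 at 12 h and 122.95 at 0 h for the higher genes, and 48.0 and 82.4 for the lower ones. With the mean of all probe sets of a gene in place of 1, the counts were 28 and 18. In a bulk sample, fewer cells with an RNA and less of it per cell cannot be told apart. The rule let in Zbtb48 (0.59 and 0.58) and left out Arsa (0.58 and 0.61) among higher genes. Among lower genes it let in Aqp1 (-0.69 and -0.59) and left out Jun (-0.60 and -0.58).

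**Figure D1:**
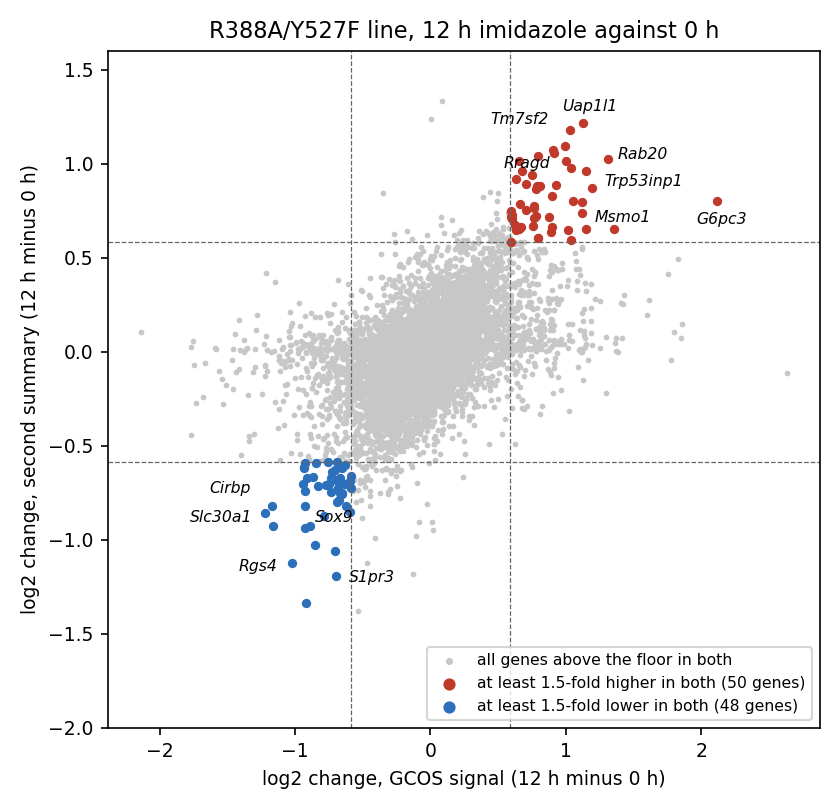
Log2 change at 12 h minus 0 h in the R388A/Y527F line by GCOS signal (horizontal axis) and by the second summary (vertical axis), 1 point per gene above the floor in both, with dashed lines at 1.5-fold. The 50 red genes and the 48 blue genes lie beyond 1.5-fold in both, and many genes beyond 2-fold on the horizontal axis lie near 0 on the vertical one.

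Genes of the lysosome made up one recognisable group among the higher genes. Of the 75 lysosomal genes above the floor in both summaries, 54 were higher at 12 h in both and 8 lower, against 34.7% higher and 36.8% lower over all genes. The list's median change was 0.25 in GCOS and 0.24 in the second summary. Beside 0.439% of all genes, 3 members were past 1.5-fold in both (Ctsa, Neu1 and Atp6v0d1). Dpp7, a dipeptidyl peptidase of the lysosome outside the list, was also past it. TFEB and its relatives bind a palindromic E-box called the CLEAR element. Its core, TCACGTGA, occurred in the 250 bases before the start of 4 of the 37 higher genes that have a RefSeq promoter, or 10.8%. It occurred before 7 of 62 lysosomal genes (11.3%), none of the 37 lower genes with a promoter, and 1.83% of the 9246 genes above the floor in both summaries with one. The shorter E-box CACGTG, which lies inside the core, occurred before 9 of the 37 higher genes, 3 of the 37 lower ones, 19 of the 62 lysosomal ones and 10.0% of all. Both strands were searched. A match describes letters only, and binding was not measured. The 4 higher genes with the core, Washc2 among them by its motif and not by the naming rule, are shown as the 150 bases that end 1 base before the start, from RefSeq on GRCm38.p6, 5′ to 3′ on the gene's strand, with the core in capitals.
Dpp7, chr2:25356333-25356482, minus strand: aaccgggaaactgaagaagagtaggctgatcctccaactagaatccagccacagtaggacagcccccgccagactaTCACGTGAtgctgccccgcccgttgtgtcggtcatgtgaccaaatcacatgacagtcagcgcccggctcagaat
Ctsa, chr2:164833623-164833772, plus strand: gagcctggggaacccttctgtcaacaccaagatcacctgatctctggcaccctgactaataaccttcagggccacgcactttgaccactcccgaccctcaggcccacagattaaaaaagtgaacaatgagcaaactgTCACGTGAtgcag
Washc2, chr6:116207883-116208032, plus strand: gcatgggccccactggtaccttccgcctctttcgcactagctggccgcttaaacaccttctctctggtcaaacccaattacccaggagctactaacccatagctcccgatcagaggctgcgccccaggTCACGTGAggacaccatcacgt
Amdhd2, chr17:24163734-24163883, minus strand: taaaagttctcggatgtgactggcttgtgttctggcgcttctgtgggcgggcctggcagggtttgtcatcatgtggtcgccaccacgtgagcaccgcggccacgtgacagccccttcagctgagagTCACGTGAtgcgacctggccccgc

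In these windows the core lies close to the start. It begins 13 bases before it in Ctsa, 22 in Washc2, 24 in Amdhd2 and 74 in Dpp7. Washc2, a subunit of the WASH complex that sorts endosomal cargo, had a signal of 1208.1 at 12 h against 783.0 at 0 h (0.63 and 0.67). The lysosomal genes with the core were Ctsa, Cln3, Ctsd, Mcoln1, Pip4p1, Atp6v1a and Gla. All 4 printed genes were at least 1.5-fold higher in the D386N/Y527F line as well.

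Among the lysosomal enzymes and their activators, 26 of 37 were higher in both summaries and 2 lower. Ctsa, the protective protein that keeps sialidase and galactosidase stable, had a signal of 1489.9 at 12 h and 859.4 at 0 h, a change of 0.79 and 0.61. Neu1, the sialidase in that complex, had 174.8 at 12 h and 112.6 at 0 h (0.63 and 0.92). The enzyme and its protector were thus both among the 50 higher genes by the probe sets chosen. The other probe set of each stood near 0 or lower, at -0.05 for Ctsa and -0.15 for Neu1. Dpp7 had 488.5 at 12 h against 245.8 at 0 h, a change of 0.99 and 1.095. Its 2 other probe sets stood at 0.06 and 0.72 in GCOS. Hexa, a subunit of hexosaminidase that degrades gangliosides, had 1249.2 against 833.8 (0.58 and 0.61). Tpp1, a tripeptidyl peptidase, had 1921.6 against 1290.2 (0.57 and 0.61). Arsa, which removes sulfate from sulfatide, had 919.0 against 612.7. These 3 sat just under the 1.5-fold rule in GCOS. Ctsf, a cysteine cathepsin, was dim, at 50.6 and 32.6 (0.63 and 0.54). Lipa, the acid lipase that frees cholesterol from its esters, ran the other way, with 113.7 at 12 h and 186.2 at 0 h, a change of -0.71 in GCOS and -0.26 in the second summary. Ids, of heparan sulfate breakdown, differed by -0.03 and -0.07.

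The proton pump that acidifies the lysosome had 14 of 17 subunits higher in both summaries and 3 lower, with medians of 0.37 and 0.30. Atp6v0d1, a subunit of the membrane sector, had 1687.9 at 12 h and 1112.8 at 0 h (0.60 and 0.71). Atp6v1a, the catalytic subunit, had 1156.1 and 778.8 (0.57 and 0.60), and Atp6v1d, of the central stalk, 768.7 and 524.3 (0.55 and 0.55). The higher subunits named here were picked for the size of their change, so their likeness is partly set by that choice. Over the 17 subunits the GCOS change ran from -0.46 to 0.60. Another probe set of Atp6v1a stood at 0.30 in GCOS, and 2 others of Atp6v1d at 0.34 and 0.42. Atp6v0b stood at 0.50 and 0.56 and the accessory protein Atp6ap2 at 0.51 and 0.53. The 2 other probe sets of Atp6v0b stood at -0.20 and 0.67 in GCOS. Lower values came from Atp6v0a2, one isoform of the membrane subunit (-0.21 and -0.25), and from Atp6v0e2, whose 12 h signal of 8.8 lay below the floor. Of the 21 membrane proteins, 14 were higher in both and 3 lower. Pip4p1, a phosphatase of lysosomal phosphoinositides, had 601.7 at 12 h against 429.6 at 0 h (0.49 and 0.74). Mcoln1, the calcium channel of the lysosome, had 523.5 against 368.7 (0.51 and 0.57). Its 2 other probe sets stood at -0.52 and 0.56 in GCOS. Clcn7, the chloride-proton exchanger, had 269.2 against 195.5 (0.46 and 0.62). Lamp1, an abundant glycoprotein of the lysosomal membrane, had 4823.7 against 3544.7 (0.44 and 0.38). Abca2 and Tmem175 were lower, by GCOS changes of -0.61 and -0.69 beside -0.24 and -0.13 in the second summary.

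The machinery that reads amino acids at the lysosomal surface was higher in part. Rragd, a Rag GTPase through which mTORC1 is recruited, gave 55.5 at 12 h against 27.7 at 0 h, a change of 1.00 and 1.01. It was 29.1 at 1 h, so the difference lay between 1 h and 12 h. Its partner Rragc had 1559.2 against 1073.4 (0.54 and 0.57), and Lamtor1, the Ragulator subunit that anchors the complex to the membrane, 2073.0 against 1318.4 (0.65 and 0.52). Folliculin and its partners, which act on RagC and RagD, were higher together. Flcn stood at 0.36 and 0.64, Fnip1 at 0.41 and 0.64 and Fnip2 at 0.35 and 0.58. Of the TFE factors, Tfe3 had 513.1 at 12 h and 518.5 at 0 h (-0.02 and -0.06). Tfeb, at 47.2 and 54.6, stood at -0.21 and -0.31, and Mitf, at 53.7 and 76.6, at -0.51 and -0.45. Of the 24 genes in this list 13 were higher in both summaries and 9 lower, with medians of 0.04 and 0.14. Of the sestrin genes, Sesn1 (-0.44 and -0.40) and Sesn3 (-0.29 and -0.21) were lower and Sesn2 was higher (0.16 and 0.27).

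Autophagy genes split by step. Of 14 initiation genes 11 were lower in both summaries and 1 was higher, beside 36.8% lower and 34.7% higher over all genes. Of 12 genes for ATG8 conjugation and the ATG8 proteins 7 were higher and 3 lower. None of the 30 passed 1.5-fold in both. The higher initiation gene was Uvrag, of the class III lipid kinase complex, with 603.0 at 12 h and 420.1 at 0 h (0.52 and 0.44). The lipid kinase itself, Pik3c3, had 153.7 and 187.6 (-0.29 and -0.32), and its partner Becn1 597.3 and 696.8 (-0.22 and -0.22). The ATG8 genes Gabarap (0.52 and 0.43), Gabarapl1 (0.44 and 0.48) and Map1lc3b (0.37 and 0.41) were the higher end of the list. The receptor Sqstm1 stood at 0.28 and 0.33. At 1 h, against the same 0 h array, 10 of the 14 initiation genes were already lower in both summaries and 0 higher. In D386N/Y527F at 12 h 4 of the 14 were lower and 4 higher, and of the 12 conjugation and ATG8 genes 6 were higher and 5 lower.

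Enzymes of cholesterol synthesis were the list with the highest median, 0.49 in GCOS and 0.53 in the second summary. Of the 19 genes 17 were higher at 12 h in both summaries and 1 was lower, beside 34.7% and 36.8% over all genes. Past 1.5-fold in both were 3 (Tm7sf2, Msmo1 and Fdps), beside 0.439% of all genes. The list's medians at 1 h were 0.05 and 0.03. In the first steps, from acetyl-CoA units to farnesyl diphosphate, Hmgcs1, the HMG-CoA synthase, had 4449.4 at 12 h and 2875.8 at 0 h (0.63 and 0.58). Fdps, which makes farnesyl diphosphate, had 4467.4 and 2805.6 (0.67 and 0.66). Idi1 stood at 0.51 and 0.49 and Mvd at 0.48 and 0.53. Ggps1, which leads away from sterols to geranylgeranyl groups, was the one lower gene, with 110.5 at 12 h and 112.3 at 0 h (-0.02 and -0.10). The following enzymes were close to the first in size. Fdft1, squalene synthase, had 892.4 at 12 h and 579.5 at 0 h (0.62 and 0.57), and Sqle, squalene epoxidase, 1352.6 and 1021.9 (0.40 and 0.42).

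The largest changes of the pathway lay between lanosterol and cholesterol. Msmo1, the sterol 4-methyl oxidase, had 2662.5 at 12 h and 1228.3 at 0 h, a change of 1.12 and 0.74, and a second Msmo1 probe set stood at 0.39. Tm7sf2, a sterol 14-reductase, was dimmer, with 174.1 and 85.4, a change of 1.03 and 1.18. Lbr, the lamin B receptor that has the same reductase activity, named after its values were seen, had 897.5 and 1058.3 (-0.24 and 0.05). Cyp51, the lanosterol demethylase, had 1825.0 and 1294.7 (0.50 and 0.59). Sc5d stood at 0.58 and 0.55, Nsdhl at 0.50 and 0.54 and Hsd17b7 at 0.49 and 0.65. Those 4 enzymes act one after another or side by side in the same stretch and had similar changes by the probe sets chosen. The 2 other probe sets of Sc5d stood at -0.20 and 0.31 in GCOS, and the 2 of Cyp51 at 0.17 and 0.34. The 3 other probe sets of Hsd17b7 ran from 0.46 to 0.72. Members were named for the size of their change, and the 9 genes of this stretch ran from -0.24 to 1.12 in GCOS.

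The genes that sense sterols differed less than the enzymes. Srebf2, which encodes SREBP2 and was also named after its values were seen, had 1486.6 at 12 h and 1599.6 at 0 h, a change of -0.11 and 0.00. Insig1, an SREBP2 target that also restrains it, had 942.6 and 799.3 (0.24 and 0.19), and Mbtps2, the protease that frees SREBP2, 324.9 and 277.6 (0.23 and 0.35). Among transport genes, Npc2, which carries cholesterol inside the lysosome, had 2645.6 and 1771.0 (0.58 and 0.41). The cytosolic carrier Stard4 stood at 0.28 and 0.38. Abca1, the exporter of cholesterol from cells, was lower, at -0.53 and -0.73. Fat synthesis and lipid droplet genes had medians of 0.17 and 0.06, with the droplet coat gene Plin2 at 0.42 and 0.40 and the desaturase gene Scd1 at 0.33 and 0.35.

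The promoters of the sterol enzymes share a short motif. SREBP2 acts beside the factor NF-Y, which binds CCAAT, and 16 of the 16 sterol enzyme genes with a RefSeq promoter held CCAAT on either strand in the 250 bases before the start. Among the 9246 genes above the floor in both summaries with a promoter the share was 40.8%. A strict sterol element, TCACNCCAC, was found in 1 of the 16, Hmgcs1, and in 1.19% of all. Windows of 150 bases are shown for the 2 genes with the largest change and for Hmgcs1, with CCAAT or its complement, and the sterol element of Hmgcs1, in capitals.
Tm7sf2, chr19:6067851-6068000, minus strand: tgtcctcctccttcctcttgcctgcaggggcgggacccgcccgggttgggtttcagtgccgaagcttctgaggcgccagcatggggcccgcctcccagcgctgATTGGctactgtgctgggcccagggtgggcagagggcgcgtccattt
Msmo1, chr8:64733579-64733728, minus strand: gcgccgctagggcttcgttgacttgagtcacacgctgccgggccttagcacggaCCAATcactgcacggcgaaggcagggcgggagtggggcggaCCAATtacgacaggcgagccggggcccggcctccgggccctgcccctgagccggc
Hmgcs1, chr13:119690201-119690350, plus strand: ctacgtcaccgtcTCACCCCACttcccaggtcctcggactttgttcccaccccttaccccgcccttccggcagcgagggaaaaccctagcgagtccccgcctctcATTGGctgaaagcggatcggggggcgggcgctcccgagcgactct

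Msmo1 has 2 CCAAT boxes in its window, Tm7sf2 and Hmgcs1 1 each.

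**Figure D2:**
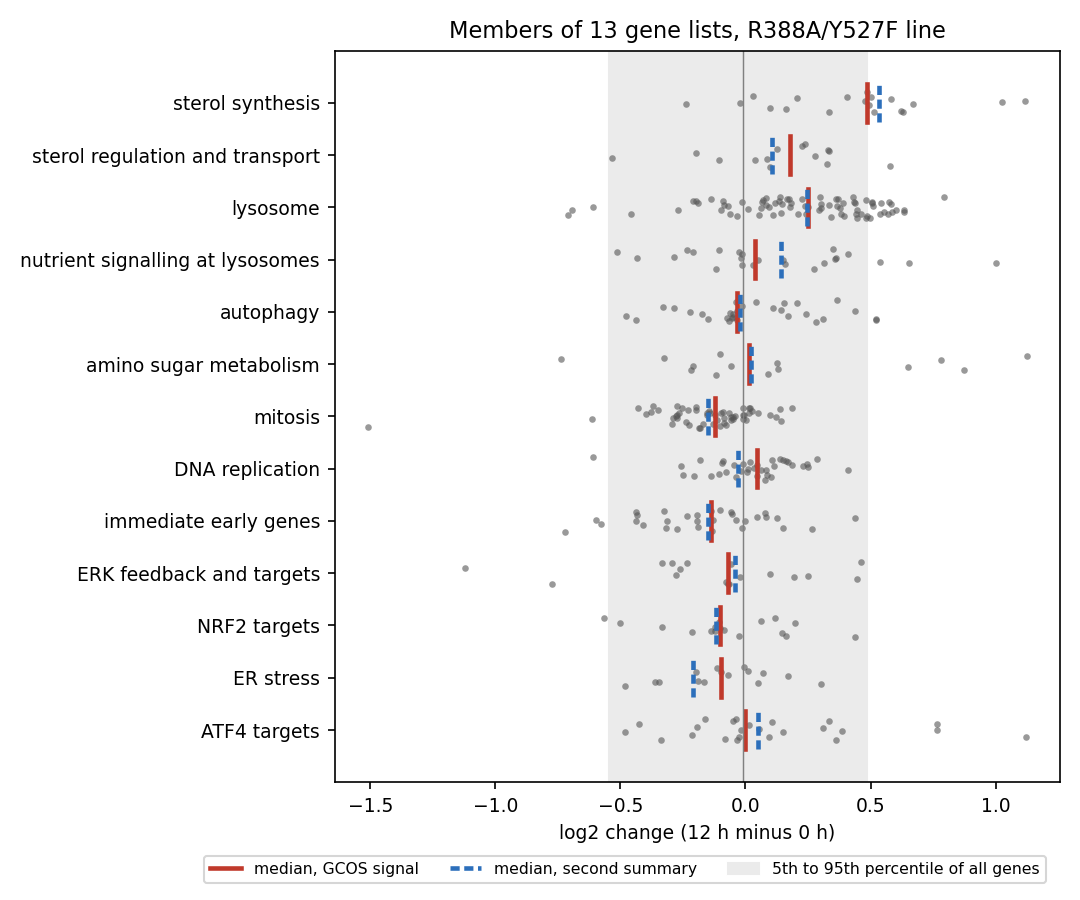
Log2 change in GCOS signal at 12 h minus 0 h for the members of 13 gene lists (grey points, 1 per gene), with the median by GCOS (red) and by the second summary (blue, dashed). The grey band runs from the 5th to the 95th percentile of the 11402 genes above the floor in both summaries, -0.54 to 0.48. The median of sterol synthesis, 0.49, is the only one drawn that lies at its edge.

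Of the 14 amino sugar genes above the floor in both summaries 4 were among the 50 higher genes, beside 0.439% of all genes. The list was chosen with earlier results of these data known. Uap1l1, which is related to the enzyme that makes UDP-N-acetylglucosamine, had signals of 645.7, 592.9 and 1408.2 at 0, 1 and 12 h. Its change at 12 h was 1.12 and 1.21, the largest of all genes by the smaller of the 2 summaries. The other 3 act on amino sugars that leave or enter that pathway. Amdhd2, a deacetylase of N-acetylglucosamine 6-phosphate, had 352.2 at 12 h and 192.2 at 0 h (0.87 and 0.72). Gnpda1, which turns glucosamine 6-phosphate back into fructose 6-phosphate, had 474.4 and 275.6 (0.78 and 0.88). Renbp, an epimerase of N-acetylglucosamine, had 693.2 and 441.4 (0.65 and 1.02). The enzymes of the forward route did not share this. Gfpt1, its first enzyme, named after its values were seen, stood at -0.10 and -0.17, and Uap1, the relative of Uap1l1, at -0.21 and -0.20. Over the 14 genes of the list 6 were higher in both and 4 lower, with medians of 0.01 and 0.02. Cmas, which activates sialic acid, stood at -0.32 and -0.43.

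The other higher genes had varied roles. Rab20, a small GTPase of endosomes and phagosomes, had 50.5 at 12 h, while its 0 h signal of 15.7 lay below the floor, so the change of 1.31 is a lower bound. The second summary gave 1.02. Tcn2, which carries vitamin B12 into cells, had 193.2 at 12 h and 87.2 at 0 h (1.15 and 0.96). Its 4 other probe sets ran from 0.09 to 0.84 in GCOS. Stx3, a SNARE protein of vesicle fusion, had 360.4 and 205.4 (0.81 and 0.88). Trp53inp1, a p53-induced gene with a part in autophagy, had 271.5 and 118.8 (1.19 and 0.87), and 213.4 at 1 h. Its other probe set stood at -0.28. The p53 target list, which holds it, had medians of 0.01 and 0.02. Bhlhe40, a repressor in the circadian clock, had 141.9, 244.8 and 269.8 at 0, 1 and 12 h, so most of its difference was already present at 1 h. Malat1, a long nuclear RNA, had 202.9, 582.4 and 381.5, with the highest value at 1 h. Mgp, a matrix protein that inhibits calcification, had 162.8 at 12 h and 78.4 at 0 h (1.05 and 0.80). G6pc3, a glucose 6-phosphatase, had 20.2, 52.3 and 88.6 at 0, 1 and 12 h, with the first below the floor. Its GCOS change was 2.12, a lower bound, and the second summary gave 0.80. The 50 genes were chosen against the 0 h array, and 48 of them were also higher at 12 h than at 1 h in both summaries, all but Malat1 and G6pc3.

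Stress genes gave a mixed picture. Ddit3, which encodes the stress factor CHOP, had 396.5 at 12 h and 233.4 at 0 h (0.76 and 0.77), while its other probe set stood at -0.45. Trib3, a CHOP and ATF4 target, had 111.1 and 65.3 (0.77 and 0.54), with its other probe set at -0.16. Vldlr, a lipoprotein receptor, had 44.4 at 12 h against 18.0, below the floor, at 0 h (at least 1.12, and 0.55). Psat1, of serine synthesis and in the same list, had 1051.1 and 1465.9 (-0.48 and -0.44). Of the 24 ATF4 targets 11 were higher in both summaries and 9 lower, or 45.8% and 37.5%, beside 34.7% and 36.8% over all genes. Genes of endoplasmic reticulum (ER) stress stood on the low side, with medians of -0.10 and -0.21. Of the 15, 10 were lower in both and 2 higher, beside 36.8% lower over all genes. In D386N/Y527F at 12 h 14 of the 15 were lower in both and 1 higher, beside 41.9% and 31.3% over all genes there. Among these genes in R388A/Y527F, Dnajc3 had 294.0 and 377.9 (-0.36 and -0.40) and Hyou1 345.6 and 482.7 (-0.48 and -0.21). Of the NRF2 targets 11 of 17 were lower in both and 3 higher. Gsr, which reduces glutathione, stood at -0.57 and -0.46, Srxn1 at -0.50 and -0.46, and Hmox1, heme oxygenase, at 0.44 and 0.62.

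Genes that ERK and growth signals are known to induce had medians just below 0 at 12 h. Of 16 ERK feedback genes and targets 10 were lower in both summaries and 4 higher, beside 36.8% lower over all genes, with medians of -0.07 and -0.04 and none past 1.5-fold in both. At 1 h, against the same 0 h array, 11 of 16 were lower and 1 higher, with medians of -0.20 and -0.13. With the 1 h array as baseline the 12 h median was 0.21 in GCOS, so its direction depends on the baseline. The feedback inhibitor Spry1 had 366.6 at 12 h and 268.9 at 0 h (0.45 and 0.68) and the phosphatase Dusp4 165.2 and 119.9 (0.46 and 0.50). Phlda1 had 267.9 and 337.9 (-0.33 and -0.36). Of 29 immediate early genes 20 were lower in both and 7 higher, with medians of -0.14 and -0.15. Jun, an AP-1 subunit, had 1009.4 and 1527.7, and Klf2, a zinc finger factor, 217.9 and 325.5 (-0.58 and -0.67). STAT3 targets had medians of 0.00 and 0.04. Cdkn1b, the cell cycle inhibitor p27, belongs to the separate quiescence list and had 466.2 at 12 h and 284.6 at 0 h (0.71 and 0.50). Of the 15 quiescence genes 5 were higher in both summaries and 7 lower, or 33.3% and 46.7%, beside 34.7% and 36.8% over all genes.

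Genes of mitosis leaned to the lower side by small amounts. Of 57 genes 42 were lower at 12 h in both summaries and 7 higher, beside 36.8% lower and 34.7% higher over all genes. The medians were -0.12 and -0.15, with none past 1.5-fold in both. Among cyclins and kinases Aurkb, aurora kinase B, had 203.2 at 12 h and 262.3 at 0 h (-0.37 and -0.28), and Plk1, polo-like kinase, 683.1 and 813.5 (-0.25 and -0.27). Ccna2, cyclin A, stood at 0.12 and 0.05. Kinetochore genes included Cenpe (-0.40 and -0.31) and Cenpf (-0.35 and -0.34). Nuf2, of the kinetochore, stood at -1.51 in GCOS and -0.18 in the second summary, so its size is not settled. The lowest change by both summaries was that of Kif22, a chromosome-arm kinesin, with 89.2 and 136.5 (-0.61 and -0.45). Mki67, the Ki-67 proliferation antigen, had 1149.0 and 1410.1 (-0.30 and -0.31). DNA replication genes did not share the direction, with 16 of 37 higher in both (43.2%) and 14 lower (37.8%). These shares lay near those of all genes.

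The motif CHR, TTTGAA, is a mark of genes expressed late in the cell cycle, and is often paired there with CCAAT. It occurred on either strand in 17 of 47 mitosis genes with a promoter (36.2%) and in 12.5% of the 9246 genes. CCAAT occurred in 31 of the 47, or 66.0%. The windows of Kif22 and Mki67 are shown with both motifs, or their complements, in capitals.
Kif22, chr7:127042421-127042570, minus strand: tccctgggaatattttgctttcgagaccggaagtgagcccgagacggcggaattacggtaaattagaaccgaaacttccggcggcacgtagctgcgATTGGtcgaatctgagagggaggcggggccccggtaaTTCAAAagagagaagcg
Mki67, chr7:135716380-135716529, minus strand: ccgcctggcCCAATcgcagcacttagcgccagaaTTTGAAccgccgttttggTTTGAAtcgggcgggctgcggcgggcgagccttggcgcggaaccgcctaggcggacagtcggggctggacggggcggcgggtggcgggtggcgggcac

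Kif22 holds 1 copy of each motif in this window and Mki67 holds 2 of CHR and 1 of CCAAT.

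The 48 lower genes had varied roles as well. Rgs4, which switches off G proteins, had 115.4, 90.9 and 56.9 at 0, 1 and 12 h, a change of -1.02 and -1.12. A second probe set for it stood at -0.88. Sox9, a transcription factor of cartilage and of many progenitor cells, had 396.6, 343.5 and 208.1 (-0.93 and -0.94), with a second probe set at -0.65. Slc30a1, the zinc exporter of the cell membrane, had 75.3, 52.3 and 33.6 (-1.16 and -0.93). For these 3 the 1 h value lay between the others. Cirbp, a cold-inducible RNA-binding protein, had 93.5 at 12 h and 210.6 at 0 h (-1.17 and -0.82). Mgst2, a microsomal glutathione transferase, had 30.2 and 57.0 (-0.92 and -1.34). Sod3, the extracellular superoxide dismutase, had 32.1 and 61.0 (-0.93 and -0.82). Flrt3, a membrane protein of cell adhesion, had 47.5 at 12 h and 88.2 at 0 h (-0.89 and -0.93). Its other probe set stood at -0.30. Pcdh7, a protocadherin, had 45.0 and 81.3 (-0.85 and -1.03), with another probe set at 0.15. Adgrg1, an adhesion G protein-coupled receptor, had 21.4 and 49.9 (-1.22 and -0.86). Its 12 h signal lay just above the floor of 20.4. Another Adgrg1 probe set stood at -0.47 in GCOS and was not lower in both summaries. Ank2, an ankyrin that ties membrane proteins to the cytoskeleton, had 37.4 and 63.7 (-0.77 and -0.71), with another probe set at 0.32. Rbl2, a retinoblastoma relative of resting cells, had 157.0 and 247.8 (-0.66 and -0.70). The interferon-induced Ifit1 had 159.9 and 258.7 (-0.69 and -0.80), and Ifih1, a sensor of viral RNA, stood at -0.66 and -0.75. Over the 18 interferon genes 7 were higher in both and 5 lower.

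**Figure D3:**
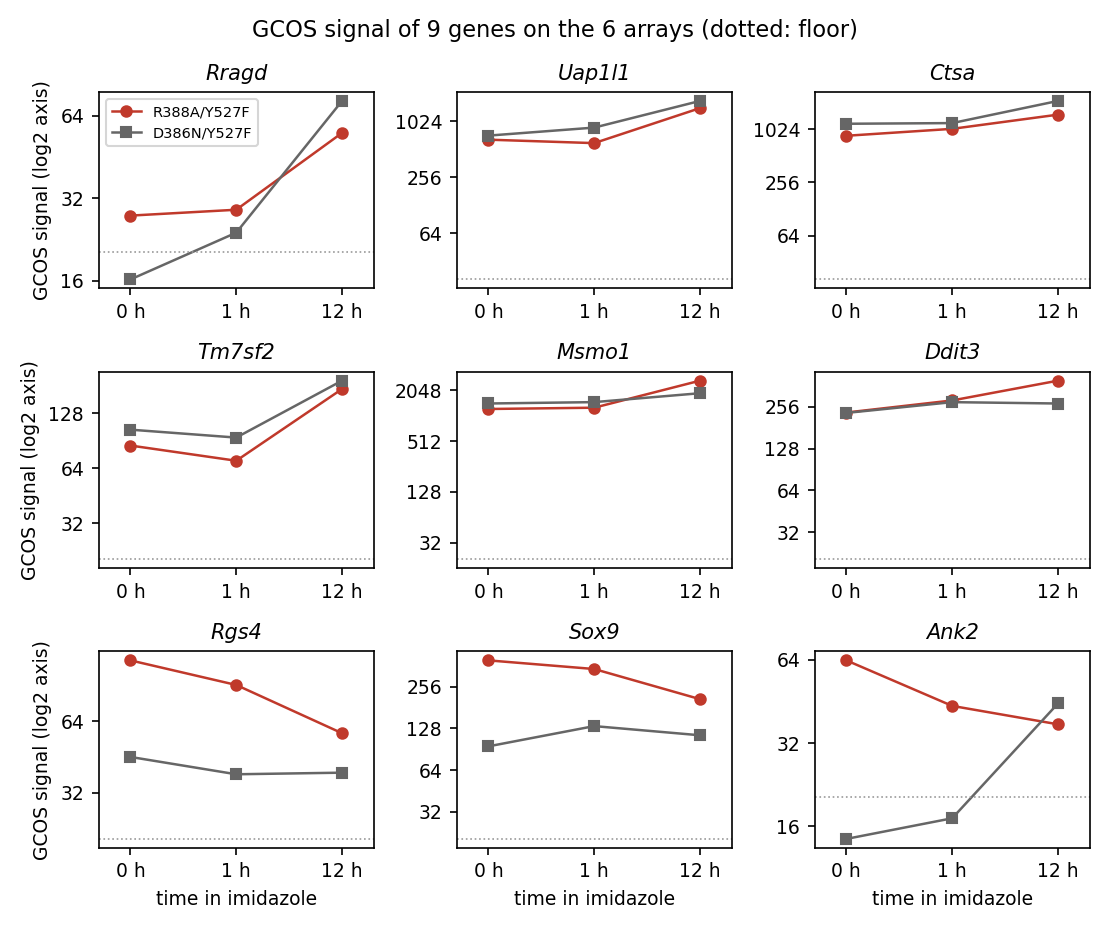
GCOS signal on a log2 axis at 0, 1 and 12 h for 9 genes, 1 array per point, in the R388A/Y527F line (red circles) and the D386N/Y527F line (grey squares), with the floor of 20.4 dotted. Rragd, Uap1l1 and Tm7sf2 are highest at 12 h in both lines, while Rgs4 and Sox9 are lower at each later time in R388A/Y527F, and Ank2 runs in opposite directions in the lines.

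In the D386N/Y527F line, whose arrays are separate from those of the R388A/Y527F line, 12 h against 0 h gave 108 genes at least 1.5-fold higher in both summaries (0.951% of 11352) and 59 lower (0.52%). Of the 50 genes higher in R388A/Y527F, 46 could be measured there, and 38 of them had the same sign in both summaries and 3 the opposite sign. Over all genes, 31.3% were higher in both summaries there. The share at least 1.5-fold higher in both lines was 21 genes, 42.0% of the R388A/Y527F list and 19.4% of the D386N/Y527F list. Median changes of the measured genes in D386N/Y527F were 0.68 and 0.67. The 21 genes included Uap1l1, Tm7sf2, Rragd, Dpp7, Tcn2, Stx3, Gnpda1, Amdhd2, Renbp, Neu1, Ctsa and Atp6v0d1. Rragd, at 55.5 and 27.7 in R388A/Y527F, had 72.6 at 12 h and 16.2 at 0 h in the D386N/Y527F cells, where the GCOS change of 1.83 is a lower bound. Mark1, Prodh and Ak5, named because they were the 3 with the opposite sign, were dim in D386N/Y527F, at 23.6, 10.4 and 34.2 at 12 h.

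Of the 48 lower genes, 45 could be measured there, 27 had the same sign in both summaries and 7 the opposite one, beside 41.9% of all genes that were lower in both there. At least 1.5-fold lower in both lines were 2 genes, Slc30a1 and, named for this count, Paqr3, 4.17% of the R388A/Y527F list and 3.39% of the D386N/Y527F list. Median changes in D386N/Y527F were -0.17 and -0.23. Slc30a1 had 35.4 at 12 h and 67.0 at 0 h there (-0.92 and -0.96). Sox9, with 208.1 and 396.6 in R388A/Y527F, stood at 0.27 and -0.02 in D386N/Y527F. Rgs4 had 38.8 and 45.2 there, so its 0 h level was already below the R388A/Y527F level of 56.9 at 12 h. Whether the lines differ in these changes was not tested, since neither has a replicate.

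**Figure D4:**
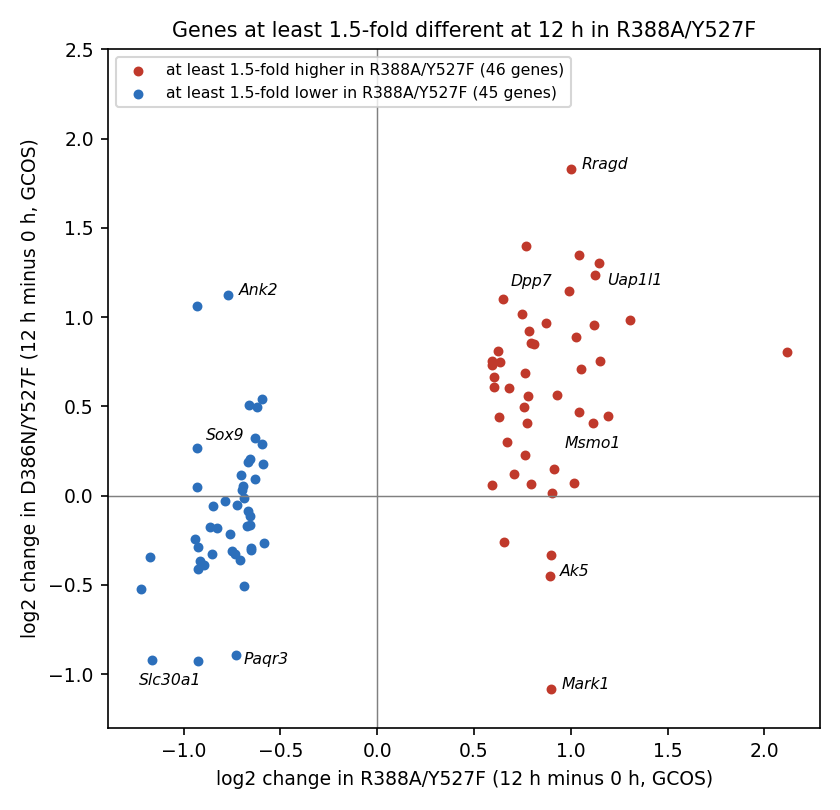
Log2 change in GCOS signal at 12 h minus 0 h in the R388A/Y527F line (horizontal axis) and in the D386N/Y527F line (vertical axis) for the genes at least 1.5-fold higher (red, 46 measured in both lines) or lower (blue, 45) in both summaries in R388A/Y527F. Most red genes lie above 0 on the vertical axis, and blue genes lie on both sides of it.

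The lysosome list had medians of 0.25 for R388A/Y527F and 0.28 for D386N/Y527F (0.24 and 0.30 in the second summary), with 60 of 75 lysosomal genes higher in both summaries in D386N/Y527F. The sterol list stood at 0.49 in R388A/Y527F and 0.24 in D386N/Y527F (0.53 and 0.26), where 15 of 19 genes were higher. Msmo1 had 2662.5 at 12 h and 1228.3 at 0 h in R388A/Y527F, beside 1889.8 and 1427.4 for D386N/Y527F. The mitosis list stood at -0.12 in R388A/Y527F and -0.22 in D386N/Y527F (-0.15 and -0.25). ATF4 targets stood at 0.00 in R388A/Y527F and -0.36 in D386N/Y527F (0.05 and -0.31), with 19 of 24 lower in D386N/Y527F. Ddit3 had 271.2 at 12 h and 231.9 at 0 h there, beside 396.5 and 233.4 in R388A/Y527F, and Psat1 was lower in both lines (-0.62 and -0.69 in D386N/Y527F). The 1 h array of the R388A/Y527F line, which shares the 0 h array with the 12 h comparison, had 21 genes at least 1.5-fold higher in both summaries (0.184% of 11424) and 41 lower (0.359%). Of the 50 genes higher at 12 h 3 passed that rule at 1 h (Malat1, Bhlhe40 and G6pc3), and of the 48 lower ones 2, Sema3f and Gimap9, named because they were the only ones. The lysosomal list's median at 1 h was 0.05 in GCOS and -0.01 in the second summary, beside 0.25 and 0.24 at 12 h.

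The choice of probe set matters for single genes. For 21 of the 50 higher genes, 38 other probe sets were above the floor in both summaries, and 25 of them (65.8%) were higher in both. For 26 of the 48 lower genes, 17 of 34 (50.0%) were lower in both. Over all genes with further probe sets the share with the sign of the chosen one was 35.3%. That share also counts genes whose 2 summaries split, 3249 of all 11402, which have no sign to match. Called genes never split, so 35.3% is not a like baseline for their shares. Across genes, which are not independent replicates, Pearson's r between the 2 changes was 0.515, and the SD of their difference was 0.28 on the log2 scale.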

How the data were processed

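Total RNA of 6 cell samples, 1 per group, was amplified once and hybridised to Affymetrix mouse 430 2.0 arrays, per the labels. The authors deposited linear intensities, and the submitters' processing notes name GCOS 1.3. Every array has a mean of 150 after trimming 2% at each end, so the arrays were scaled to 1 level. A deposited workbook holds the same GCOS values (0 differing) and a second linear summary of the same arrays, whose method is not given in the sources used here. Array number limits the precision, and the intensities carry no replicate error.

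Of 45101 probe sets, 34945 had 1 gene symbol in the platform annotation, 932 several and 9160 none, and 64 were controls. Each of 18193 genes took 1 probe set, by suffix (specific before shared) and then by highest mean signal. A floor at the 40th percentile of all signals replaced lower values, changes were taken as log2 of 12 h minus 0 h, and a fold with an array at the floor is a lower bound. A gene was counted where the brighter array was above the floor and the change was at least 2-fold in GCOS, or at least 1.5-fold in the same direction in both summaries. Of 761 gene names in 36 lists, 722 were matched, and the others were not analysed here. No test was run and no p-value is given, because each group has 1 array. The 2-fold cut was tested on simulated data in each summary alone, with planted changes larger than 2-fold in bright genes. The 1.5-fold rule in both summaries was not simulated.

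Genes were named by rule: the 15 largest changes in each direction by the smaller of both summaries (clone names left out), the largest members of each list and those opposing it, Src, Fyn, Yes1 and Csk, and the genes at the 1.5-fold edge. A few named for a count are marked as such. Members, lists and rules were chosen with earlier results of these data known. Motifs were searched by exact letters on both strands of the 250 bases before each RefSeq start (32851 promoters of 27025 genes, GRCm38.p6). Alternatives were the second summary, quantile normalization, other floors, a pseudocount of 16, the mean of all probe sets, the 1 h array as baseline and a filter on both arrays. Python 3.11.15, NumPy 2.4.6, pandas 2.3.3 and matplotlib 3.10.9 were used.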

Additional observations from a re-analysis of the deposited data

Results flagged for a closer look

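Ank2 moved in opposite directions in the lines. Its log2 change at 12 h was -0.77 in R388A/Y527F, with GCOS signals of 37.4 at 12 h and 63.7 at 0 h. In D386N/Y527F it was 1.13, with 44.5 at 12 h and 14.4, below the floor, at 0 h, so that change is a lower bound. The second summary gave -0.71 and 1.08. Another Ank2 probe set stood at 0.32 in R388A/Y527F. Each line has 1 array per time, so the difference was not tested.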

How the results depend on the processing

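No paired analysis was possible because each group has 1 array and the titles carry no replicate numbers. Quantile normalization moved no count or list median beyond the limits used, which were 1.5 times for a count and, for a median, the SD between the 2 summaries over the square root of the list's size. Quantile normalization turned the sign of 4 medians near 0, autophagy (0.0024), heat shock (-0.041), ATF4 targets (0.031) and p53 targets (-0.0024). The 114 and 138 genes at least 2-fold higher and lower in GCOS became 11 and 8 in the second summary, 13 and 13 with the floor at the 60th percentile, 58 and 77 with the mean of all probe sets, and 59 and 68 with both arrays above the floor. The 50 genes higher in both summaries became 31 with a pseudocount, 28 with the mean of all probe sets and 92 with the 1 h array as baseline. The 48 lower ones became 19 with the higher floor, 15 with the pseudocount and 18 with the mean of all probe sets.

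With the mean of all probe sets, list medians were 0.34 for sterol synthesis, 0.18 for the lysosome, 0.067 for autophagy, -0.077 for mitosis, -0.16 for ERK feedback, -0.19 for immediate early genes, 0.12 for ATF4 targets, 0.12 for p53 targets, 0.036 for ribosome biogenesis and -0.061 for metal response. Those of autophagy, ATF4 targets and metal response changed sign, as did STAT3 targets (-0.044). In the second summary they were 0.14 for nutrient signalling, -0.03 for DNA replication, -0.011 for actin, SRF and YAP targets, -0.068 for heat shock, -0.21 for ER stress, 0.057 for lipogenesis, -0.11 for glycolysis, 0.018 for ribosome biogenesis, 0.058 for interferon, -0.051 for the circadian clock and 0.012 for RGS proteins. In this summary the medians of DNA replication, actin, SRF and YAP targets, heat shock, interferon, the circadian clock and RGS proteins had the opposite sign to GCOS, as did those of ATF4 targets (0.050) and metal response (-0.012). With the 1 h array as baseline they were 0.14 for nutrient signalling, 0.16 for autophagy, 0.21 for ERK feedback, -0.075 for immediate early genes, 0.16 for Src family kinases, 0.095 for Src substrates, 0.11 for the matrix, 0.066 for quiescence, 0.035 for ribosome biogenesis, -0.19 for interferon, 0.19 for the circadian clock and 0.15 for Rab GTPases. With this baseline the medians of autophagy, ERK feedback, Src family kinases, Src substrates and quiescence changed sign, as did those of amino sugar metabolism (-0.044), heat shock (-0.053) and ATF4 targets (0.041), and Malat1, at -0.61. The causes were not tested. Low signals limit the lower genes most, whose median was 48.0 at 12 h against 82.4 at 0 h, with a floor of 20.4.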

Other observations

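Some other gene groups differed little or in parts. Quiescence genes had a median of -0.05, and ribosome biogenesis genes one of 0.09 with the nucleolar GTPase gene Gnl3 at 0.51 and 0.33. Of 13 endosomal Rab genes 8 were higher in both summaries and 4 lower, with medians of 0.05 in each. The lower ones included Rab32 and Rab38, which act in the transport of cargo to lysosome-related organelles, with 82.5 and 80.0 at 12 h against 118.8 and 104.1 at 0 h. Matrix genes had a median of 0.07. Mmp14, a membrane metalloprotease, had 862.5 at 12 h and 657.9 at 0 h (0.39 and 0.63), and Tnc, tenascin C, 160.1 and 227.0 (-0.50 and -0.35). Of glycolysis and HIF targets, the neuronal enolase gene Eno2 stood at 0.53 and 0.66 and the oxygen sensor gene Egln3 at -0.50 and -0.88.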
